A study of Mus musculus with 36 samples.

Results

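The loci described here are stretches of open chromatin in nuclei that the labels give as enriched for mouse cardiomyocytes. Their ratio of infarct border zone to sham tags was low on day 7 after surgery and within a set band on days 4 and 14, which allows a border zone somewhat below or above sham on those days. There were 967 of them among the 19733 loci listed on all 3 days, and among 60847 loci in all. They were chosen by their measured values. Listed regions sharing 1 bp or more formed 1 locus. The border zone tags of a locus were divided by its sham tags for each day, and this ratio over the median ratio of that day's loci is called R. A locus was kept when R was at most 0.57 on day 7 and between 0.77 and 1.3 on days 4 and 14. R was used for the choice, so it is given below as a description with no test.

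The study compared border zone with sham myocardium of FVB/N mice by ATAC-seq, a method in which a transposase cuts accessible DNA and adds sequencing adapters to it, so that each tag marks an opened site. The 6 libraries were border zone and sham on days 4, 7 and 14, with 1 library per condition and day, and the labels do not say whether a library pooled animals. On days 7 and 14, nuclei came from Myh6-MerCreMer; nTnG hearts, in which a Cre driven by the cardiomyocyte promoter Myh6 switches a nuclear reporter after tamoxifen at 20 mg/kg, and flow cytometry collected 50000 nuclei for each library. A Sun1/sfGFP line is listed for these mice too, and tamoxifen for both conditions. The day 4 mice, border zone and sham, are labelled as Cdh5-Cre; Sun1-sfGFP, an endothelial Cre with a nuclear envelope tag. Their nuclei are labelled as GFP sorted and as pulled down through PCM1, a centrosomal protein found around cardiomyocyte nuclei, without tamoxifen. Day 4 therefore differs from days 7 and 14 in mouse line and in the isolation of nuclei, and these cannot be told apart from the day. Because no replicate exists within a day, differences between libraries were not tested.

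Accessible sites of a cell are mostly promoters and enhancers from which nucleosomes have been displaced by bound transcription factors. The border zone is the surviving muscle next to the scar, where cardiomyocytes are known to lower genes of the adult contractile and metabolic programme and to switch on stress genes. In a pool of nuclei, fewer nuclei with an open site and less opening per nucleus cannot be told apart. The loci are given by mm9 position, and no genes, sequences or cell type markers were assigned to them, since no mm9 sequence or annotation was used here. Positions count from 1.

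In whole tags, before any scaling, the listed regions of day 4 held 5469742 tags in border zone and 5907384 in sham. Those of day 7 held 2742822 in border zone and 3858892 in sham, and those of day 14 held 10311072 and 13936013. Library depth itself is unknown, since only listed regions were counted, but day 7 had the fewest tags and day 14 the most. The deposited border zone tags are scaled whole tags, except in the day 4 non-differential list. The factor was not the same for all regions of a day. On day 7 it was 1.347 in 33110 regions and 1.167 in 1337, and 500 regions fitted a sum of differently scaled terms. The tag values given below are the deposited ones.

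The 967 loci had a median R of 0.499 on day 7, and the middle 50% of them lay between 0.443 and 0.539. Of these, 494 were at or below 0.5, 133 at or below 0.4 and 18 at or below 0.3. On day 4 their median R was 0.938, with the middle 50% between 0.862 and 1.03. On day 14 the median was 0.856 and the middle 50% lay between 0.809 and 0.935. R on day 14 was below 1 in 824 of the loci (85.2%), against 59.4% of the 8620 loci that met the conditions for days 4 and 14 whatever their day 7 value. Most of the loci therefore lay in the lower part of the permitted band on day 14. In 143 of them R was at least 1 on day 14, and in 53 it was at least 1 on both day 4 and day 14.

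**Figure D1:**
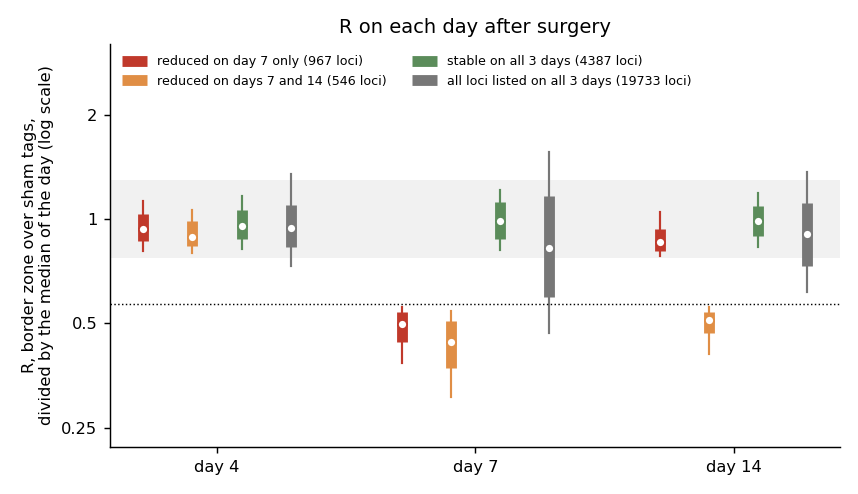
R (vertical axis, log scale, no unit) on days 4, 7 and 14 for the loci reduced on day 7 only, those reduced on days 7 and 14, those stable on all 3 days and all loci listed on all 3 days. Circles are medians, thick bars the middle 50% and thin lines the middle 80% of loci; the grey band spans 0.77 to 1.3 and the dotted line is 0.57. The loci reduced on day 7 only have medians of 0.938, 0.499 and 0.856.

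A low R was frequent on day 7. R was at most 0.57 in 21.6% of the loci listed on all 3 days on day 7, against 1.84% on day 4 and 6.01% on day 14. The loci reduced on day 7 only made up 4.9% of all loci listed on all 3 days and 22.7% of those with a low R on day 7. Among the 8620 loci in the band on days 4 and 14, 11.2% were low on day 7, and 2.44% had an R of at least 1.75. R was at least 1.75 in 4.18% of loci (day 4), 6.78% (day 7) and 3.12% (day 14). The same rule applied to the other days found 90 loci reduced on day 4 only (0.456%) and 65 reduced on day 14 only (0.329%). Applied in the opposite direction, with R at or above 1.75, it found 87 loci raised on day 4 only (0.441%), 210 raised on day 7 only (1.06%) and 13 raised on day 14 only (0.0659%). A further 546 loci (2.77%) were reduced on days 7 and 14, 20 (0.101%) on all 3 days, and 4387 (22.2%) were stable, with R between 0.77 and 1.3 on each day. With the centre of the rule, reduction on day 7 was the most frequent of these 6 single-day patterns.

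How far the reduced loci outnumbered the raised ones depended on the value taken as no change. Over the loci listed on all 3 days the median R was 0.941 (day 4), 0.824 (day 7) and 0.904 (day 14), since loci listed on fewer days also enter the centre. With each day centred on the loci listed on all 3 days, which shifts day 7 by -0.28 on the log2 scale, 651 loci were reduced and 484 raised on day 7 only. Reduced loci made up 57.4% of the loci that moved on day 7 only with this centre, and 82.2% with the centre of the rule. Of the 967 loci, 334 also met the rule with the other centre. The other 633 left the set. This centre puts the day 7 limit at 0.470 on the scale of R used here, below the median of the 967 loci, and moves the band of days 4 and 14 as well.

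The 6 libraries were then compared one by one. In each library, the tags of a locus were divided by the median over all loci listed on all 3 days. The 967 loci had a median relative level of 1.17 in border zone and 1.19 in sham on day 4. The day 7 levels were 0.536 in border zone and 0.928 in sham, and the day 14 levels 0.910 in border zone and 0.946 in sham. The median locus had 170 tags in border zone against 189 in sham on day 4, 40.4 tags in border zone against 90 in sham at day 7, and 306 against 349 at day 14. The day 7 border zone library gave the lowest relative level of the 6, and the day 7 sham library was close to both day 14 libraries. The rule itself asks for few border zone tags relative to sham on day 7. None of the loci had fewer than 50 sham tags on that day. These levels are therefore a description only, and nothing is read from their order. For the loci reduced on days 7 and 14, the border zone level was low on both later days, at 0.455 and 0.553, with sham at 0.887 and 1.04. In the stable loci the levels were 1.59 in border zone and 1.35 in sham on day 7.

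**Figure D2:**
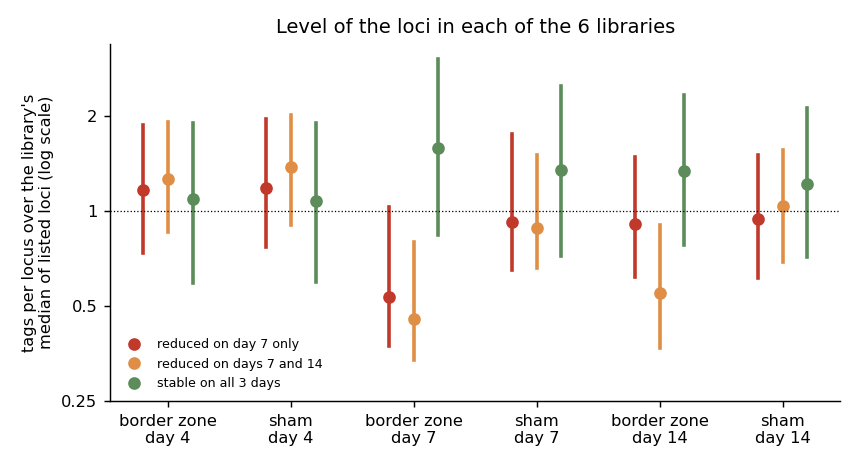
Tags per locus divided by the library's median over all loci listed on all 3 days (vertical axis, log scale, no unit) in the border zone and sham libraries of days 4, 7 and 14. Points are medians over loci and lines the middle 50%. For the loci reduced on day 7 only the point of the day 7 border zone library, at 0.536, is the lowest of the 6. These loci were chosen for a low R on day 7.

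The tags of day 7 over those of day 14 within a condition were also taken per locus, divided by its median over the loci listed on all 3 days. These ratios are built from the tags that chose the loci, and the rule itself puts the border zone ratio below the sham ratio, so they are given as a description only. The border zone ratio of day 7 to day 14 had a median of 0.612, with the middle 50% between 0.492 and 0.743. The sham ratio had a median of 1.05, with the middle 50% between 0.852 and 1.24. The border zone ratio was below 1 in 895 of the 967 loci (92.6%) and the sham ratio in 424 (43.8%). In 471 loci the border zone ratio was below 1 while that of sham was at or above 1, in 424 both were below 1, and in 72 the border zone ratio was at or above 1 and sham was higher still. Against day 4, the medians were 0.499 in border zone and 0.817 in sham on day 7, and 0.795 and 0.803 on day 14, so that the border zone ratio of day 7 was the lowest and the other 3 lay between 0.795 and 0.817.

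**Figure D3:**
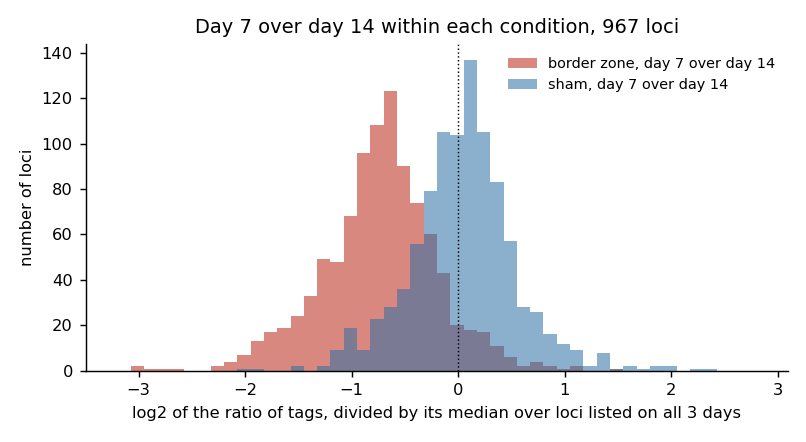
Number of loci (vertical axis) by the log2 ratio of day 7 tags to day 14 tags in border zone (red) and sham (blue), divided by the median ratio of all loci listed on all 3 days. The dotted line marks a ratio equal to that median; 895 of the 967 border zone ratios and 424 of the sham ratios lie below it.

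The regions listed on different days did not always cover the same bases, which can move these ratios. In 393 of the 967 loci (40.6%) the listed region was the same on all 3 days, against 42.5% of all loci listed on all 3 days. In these 393 loci the median R was 0.920 at day 4, 0.492 at day 7 and 0.863 at day 14. Their border zone ratio of day 7 to day 14 was 0.607 in the median and below 1 in 389 of 393 loci, and their sham ratio was 1.05. These loci were chosen by the same R values. In 1 of the 967 loci no base was listed on all 3 days.

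Depth limits what can be said about a single locus on day 7. The median locus had 30 whole border zone tags and 90 sham tags on that day. Exact Clopper-Pearson 95% intervals of R were computed from whole tags, and they cover counting error only. The day 7 interval lay wholly below those of days 4 and 14 in 444 of the 967 loci (45.9%), against 6.09% of all loci listed on all 3 days, and nothing is read from this difference because R chose the loci. It lay wholly below 0.77 in 633 (65.5%) and at or below 0.57 in 78 (8.07%). Where the 3 intervals were not separate in this way, the day 7 interval overlapped that of day 4, of day 14 or of both, which does not show that the days were alike. The intervals of days 4 and 14 lay wholly inside 0.77 to 1.3 in 79 of the 967 loci (8.17%). For most single loci, counting error thus leaves open whether R was within the band on both days. The shares for 0.77, 0.57 and the band were not taken over all loci, and nothing is read from them. In the 444 loci with separate intervals, the median R was 0.471 at day 7, with 0.951 at day 4 and 0.865 at day 14. From tags summed over all 967 loci, R was 0.944 (interval 0.939 to 0.950) for day 4, 0.490 (0.485 to 0.496) for day 7 and 0.872 (0.868 to 0.877) for day 14. These intervals also cover counting error only. They leave out the choice of the loci by R, the spread between loci and any spread between libraries.

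The loci were spread over the whole range of signal. All loci listed on all 3 days were split into 5 equal classes by their mean level over the 6 libraries. This level includes the day 7 border zone tags that the rule asks to be low, so the classes are a description only. The share that met the rule was 5.02% in the lowest class, then 5.58%, 4.89% and 4.71%, and 4.31% in the highest class. The single-day reductions of the other days were concentrated at low levels, with 48 of the 90 day 4 loci in the lowest class and 3 in the highest, and 18 and 2 of the 65 day 14 loci. In the highest class, 160 of 170 loci reduced on day 7 only had separate intervals, against 33 of 198 in the lowest. Counting intervals narrow as tags rise, so nothing is read from this difference. The contrast in level with the other days was not tested. With at least 200 whole tags on day 7, a limit chosen after the data were seen, 7925 loci could qualify. Of these, 288 were reduced on day 7 only, against 967 of 19733 without this limit. A further 81 were raised on day 7 only, 14 were reduced on day 4 only and 6 on day 14 only. The median R on day 7, which the rule holds at or below 0.57, was 0.475 in the lowest class and 0.511 in the highest.

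The loci had the width that was usual in the data. Their median width was 1500 bp, as over all loci listed on all 3 days, with 297 of 967 (30.7%) at 1000 bp and 70 (7.24%) over 3000 bp. These shares were 31.6% and 5.75% over all loci listed on all 3 days. The loci had 1 region on each day in 786 cases (81.3%), against 75.7% of all. Per kb of locus their median was 29.6 border zone and 68.0 sham tags on day 7, and 213 and 237 on day 14. The authors sorted the regions of each day into a border zone-higher, a sham-higher and a non-differential list. Every one of the 967 held a region of the sham-higher list on day 7, against 33% of all loci listed on all 3 days, which is the same contrast that chose them. On that day 126 also held a non-differential region (72.3% of all loci did) and 0 a border zone-higher one (8.69%). All 967 held a non-differential region on day 4 (94.3% of all) and on day 14 (92.2%). Beside it, 13 held a border zone-higher (6.96% of all) and 19 a sham-higher region (5.1%) on day 4, and 8 (7.2%) and 10 (8.38%) did so on day 14.

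The 10 loci with the lowest R on day 7 were mostly narrow sites with few tags. The lowest was at chr13:102580251-102581250, with 77 border zone tags against 99 sham tags on day 4, 8.17 against 50 at day 7 and 133 against 163 at day 14. Its R was 0.829 (0.607 to 1.13), 0.176 (0.0673 to 0.390) and 0.804 (0.619 to 1.04) on these days. The next was at chr7:118383751-118384750, with 80 border zone against 80 sham tags on day 4, 9.33 against 51 at day 7, and 137 against 174 at day 14. The border zone was below sham on day 7 at both loci, and their day 7 intervals did not reach those of the other days. A site at chr2:27454251-27455250 had 88 border zone against 97 sham tags on day 4, 10.5 against 51 at day 7, and 162 against 204 at day 14.

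The fourth was wider and better covered, at chr15:7122251-7124250. It had 302 border zone against 373 sham tags on day 4, 32.3 against 154 at day 7, and 321 against 402 at day 14, so that R was 0.863, 0.226 and 0.787. Its day 7 interval, from 0.141 to 0.349, was the narrowest of these 10. Here the sham library of day 7 was higher relative to day 14 than in the median locus, with a ratio of 1.36, and the border zone ratio was 0.422. At chr13:59711251-59712750 both ratios were low, 0.147 in border zone and 0.513 in sham, from 13.5 and 64 tags on day 7. Its tags were 174 in border zone and 213 in sham on day 4, and 384 and 443 on day 14. The listed region of this locus was 1500 bp on days 4 and 14 but 1000 bp on day 7, and its part in the ratios was not tested.

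The other 5 were at chr17:80403751-80404750, chr13:3546251-3547750, chr11:89984751-89985750, chr14:101571251-101572250 and chr12:68912251-68913750. Their R on day 7 lay between 0.228 and 0.262, and on days 4 and 14 between 0.771 and 1.01. They had 11.7 to 17.5 border zone tags on day 7 against 50 to 74 sham tags. None of the 967 loci had fewer than 50 sham tags on day 7, and 178 had fewer than 60, among them 6 of these 10. Several of the smallest R values thus came from sites with sham tags near the lowest number in the set. The day 7 border zone tags of the same 6 loci carry the factor of 1.167 and not the commoner 1.347. For the same whole tags this gives a lower R. How far it placed these loci among the lowest was not tested.

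The 5 loci with the most tags on day 7 showed the same pattern with narrow intervals. The largest and widest spanned 14000 bp at chr2:76744751-76758750. It had 1448 border zone against 1679 sham tags on day 4, 903 against 2018 at day 7, and 4709 against 5599 at day 14. R was 0.919 (0.856 to 0.986), 0.482 (0.441 to 0.526) and 0.829 (0.794 to 0.865) on these days. The border zone was thus below sham on all 3 days there, and the gap was widest on day 7. The locus was listed as a single sham-higher region of 13500 bp on day 7 and as a single non-differential region of 13000 bp on day 14.

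The second, at chr7:137733251-137742250, had 1159 border zone against 1273 sham tags on day 4, 517 against 1214 at day 7, and 2926 against 2867 at day 14. R was 0.970, 0.459 and 1.01, and among the 5 it was the only locus with an R above 1 on day 14. On day 7 its tags came from 2 regions that differed. A flank of 1500 bp had 72.7 border zone and 109 sham tags and was listed as non-differential, with an R of 0.719. The remaining 7500 bp had 444 border zone and 1105 sham tags, with an R of 0.433. R was thus lower in the larger region of this locus.

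The other well-covered loci were at chr2:121371251-121379250, chr7:135679751-135686750 and chr6:24518751-24524250. The first had 528 border zone and 1175 sham tags on day 7 and an R of 0.484 (0.431 to 0.543). The second had 554 and 1122 tags and an R of 0.531 (0.473 to 0.595), and the third 419 and 993 tags and an R of 0.454 (0.399 to 0.517). On days 4 and 14 their R lay between 0.787 and 0.827, in the lower part of the band. The third widest locus, at chr19:40388751-40397250, shows how joining regions can matter. On day 7 a single region of 8500 bp had 365 border zone and 852 sham tags, whereas on days 4 and 14 smaller regions inside it were listed, 4 and 3 in number. Its border zone and sham ratios of day 7 to day 14 were 1.79 and 3.73, with more bases listed on day 7 than on day 14. The day 14 region at its start, of 1000 bp, had 160 border zone and 107 sham tags, an R of 1.48, above the band. On day 4, R was 0.567 in a sham-higher region of 18.6 border zone and 35 sham tags. It was 0.677, 0.891 and 1.11 in the others. Single regions of this locus thus lay outside the band, whereas its summed R was 0.814 on day 4 and 1.04 on day 14.

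**Figure D4:**
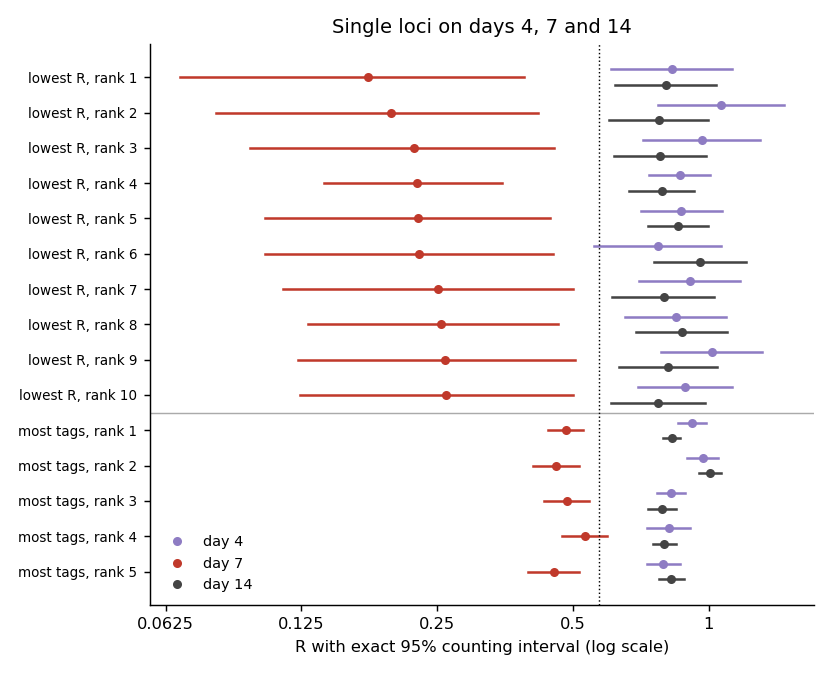
R with exact 95% counting intervals (horizontal axis, log scale, no unit) on days 4, 7 and 14 for the 10 loci with the lowest R on day 7 (upper rows) and the 5 with the most tags on day 7 (lower rows). The dotted line is 0.57. The day 7 intervals of all 15 loci lie below those of days 4 and 14, and they are wide in the upper rows, from 0.0673 to 0.390 in the first.

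At the limit of the rule the values ran on without a gap. The 5 loci just inside had an R of 0.5697 to 0.5698 on day 7, at chr3:97832751-97834250, chr4:106698751-106699750, chr6:120472251-120473250, chr10:39128751-39130750 and chr15:25885751-25890250. The 5 just outside, which met the conditions for days 4 and 14, had an R of 0.5704 to 0.5707, at chr11:58797251-58800750, chr18:38387751-38388750, chr18:38400251-38401250, chr6:65689251-65690250 and chr16:96431251-96435750. The first of those inside had 29.6 border zone and 56 sham tags on day 7, with an interval from 0.331 to 0.948, and the second of those outside had 32.3 and 61, with an interval from 0.340 to 0.929.

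The loci lay on every autosome and on chromosome X. Their share of the loci listed on all 3 days was lowest on chromosome 14, at 3.18% (24 of 755, 2.05 to 4.69%), and highest on chromosome 19, at 8.09% (49 of 606, 6.04 to 10.5%), against 4.9% in all. On chromosome 19, 24.1% of loci had a low R on day 7 whatever their other days, against 23.2% on chromosome 14. Another locus of the set lay within 50 kb in 214 of the 967 (22.1%), and within 5 kb in 64 (6.62%). For the stable loci, which are 4387 in number, these shares were 44.5% and 9.6%, and for the 546 loci reduced on days 7 and 14 they were 7.51% and 4.58%. These shares rise with the size of a set and are not compared with each other. Where the nearest listed locus lay within 50 kb, it belonged to the set in 97 of 835 cases (11.6%), against 4.9% of all loci, and it had a low R on day 7 in 34.0%, against 21.6% of all.

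Of the windows of 100 kb on a fixed grid, 2 held 4 of the loci, 11 held 3, 84 held 2 and 758 held 1. In the window from 102500001 on chromosome 13, 4 of 8 loci listed on all 3 days belonged to the set, among them the locus with the lowest R. The other 3 had 41.8 border zone and 79 sham tags, 29.6 and 89, and 77.7 and 203 on day 7, with an R of 0.569, 0.359 and 0.412. In the window from 27400001 on chromosome 15, 4 of 11 loci belonged to it, with R between 0.486 and 0.561 on day 7. The locus with 0.486, at chr15:27414751-27418750, had no base listed on all 3 days. Its border zone and sham ratios of day 7 to day 14 were 2.20 and 5.26. The border zone ratios of the others were 0.713, 1.34 and 1.32, against a median of 0.612 in the set. The locus at chr15:27432251-27434750 also held a sham-higher region on day 14. Of the windows with 3, those with the fewest listed loci began at 4900001 on chromosome 18, 22500001 on chromosome 16 and 72800001 on chromosome 5, an order among ties that was chosen after the data were seen. The adjoining window from 5000001 on chromosome 18 held another 3 among 11 listed loci.

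The loci next to the set were described in the same way. For each locus of the set the nearest locus outside it was taken, which was chosen by position, although a locus in the band on days 4 and 14 and low on day 7 belongs to the set and could not be taken. Those up to 5 kb away (338 pairs) had a median R of 0.944 (day 4), 0.687 (day 7) and 0.828 (day 14). At 5 to 20 kb the day 7 median was 0.732 (313 pairs), at 20 to 50 kb 0.787 (170 pairs) and at 50 to 200 kb 0.774 (119 pairs). The median over all loci listed on all 3 days, the set included, was 0.824. R was at most 0.57 in 25.7%, 24.9%, 21.8% and 24.4% of these neighbours, in order of distance. The share over all loci was 21.6%, but it counts the 967 loci of the set, which are all low and could not be neighbours. The neighbour values and those over all loci are therefore not like for like, and nothing is read from setting them side by side. The nearest loci of stable loci had day 7 medians of 0.912, 0.914, 0.923 and 0.905 at these distances. Those of the loci reduced on days 7 and 14 had 0.629, 0.683, 0.758 and 0.749. On day 14 the nearest neighbours up to 5 kb had a median R of 0.704 beside loci reduced on days 7 and 14, and of 0.828 beside loci reduced on day 7 only. Only the 967 loci were kept out as neighbours. Stable loci and loci reduced on days 7 and 14 could thus have neighbours of their own kind, and the set could not. The medians of these parts are therefore not like for like. Loci that share a neighbourhood share their libraries, and these medians were not tested.

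**Figure D5:**
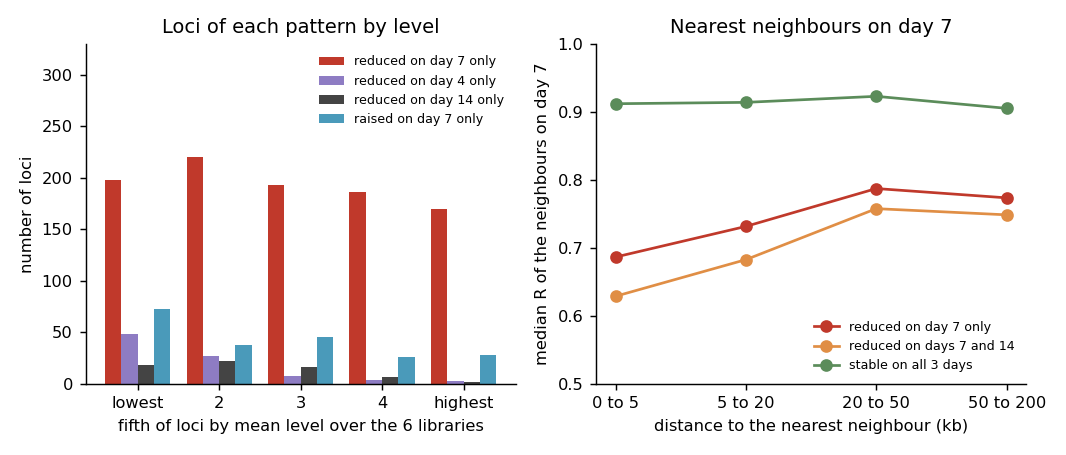
Left: number of loci of 4 single-day patterns (vertical axis) by 5 classes of mean level over the 6 libraries; the loci reduced on day 7 only number 198 in the lowest class and 170 in the highest. Right: median R on day 7 (vertical axis, no unit) of the nearest locus that is not reduced on day 7 only, by distance in kb. Up to 5 kb it is 0.687 for loci reduced on day 7 only, 0.629 for those reduced on days 7 and 14 and 0.912 for stable ones. Stable loci and loci reduced on days 7 and 14 could have neighbours of their own kind.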

How the data were processed

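ATAC-seq regions were analysed for 6 libraries, 1 per condition and day. The 30 RNA-seq samples are left out. In the 9 lists, per the file headers, every region has a count of sham tags and a border zone value, which the authors scaled to a signal that is a multiple of whole counts except in the day 4 non-differential list. Per the submitters' processing notes, BWA or Bowtie2, bedtools and mm9 were used; for versions, region caller, list thresholds and duplicates, the sources used here give nothing. Whole border zone tags were recovered by dividing by the scaling factors found in the values, with a tolerance of 0.001%. The factor differed between regions of a day, some regions were sums of terms, and 18 regions of day 4 were approximated. Of the 1121 day 7 regions of the 967 loci, 1024 had the commoner factor of 1.347. Loci, R and exact Clopper-Pearson 95% intervals, which cover counting error only, were computed with Python 3.11.15, numpy 2.4.6, pandas 2.3.3 and scipy 1.17.1. The steps were tested on simulated data with more tags than most loci here and no counting error. That checks the code and not the rule at the depth of these data. The members, lists and thresholds were chosen with earlier results of these data known. Single loci were named by rule: the 10 lowest R on day 7, the 5 with most tags, the 3 widest, and those nearest the limit. Gene, marker and sequence comparisons were left out, since the reference tables are of another build. With 1 library per condition and day, no test was run.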

Additional observations from a re-analysis of the deposited data

How the results depend on the processing

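No paired analysis was possible because each condition and day had 1 library and no result comes from a test. Results were labelled only as the same or as moved. A count of loci has no direction, and the rule holds the day 7 median of R at or below 0.57. These results could therefore not reverse, and nothing is read from the absence of reversals. Median R of days 4, 7 and 14, and the border zone and sham ratios of day 7 to day 14, are given where they left a 95% interval of the main median. This interval comes from the ranked values of the loci and is not the counting interval used above. The loci share the same 6 libraries and are not replicates, so it serves only to choose what is listed. Each count of reduced loci is given out of the loci that could qualify. Centring on the loci listed on all 3 days left 651 of 19733 loci, with 484 raised on day 7. It gave R of 0.966, 0.503 and 0.871 and ratios of 0.549 and 1.015 (border zone and sham). An R of at most 0.5 on day 7 left 494 of 19733 loci (R 0.4445 on day 7 and 0.8465 on day 14, border zone ratio 0.561) and 89 raised. A narrower band on days 4 and 14, from 0.85 to its inverse, left 353 of 19733 loci (R 0.964, 0.5045 and 0.923, border zone ratio 0.592) and 87 raised. At least 100 whole tags on each day left 583 of 13717 loci, of median width 2000 bp (day 7 R 0.505, ratios 0.656 and 1.078), and 131 raised. The same bases on all 3 days left 393 of 8377 loci, of median width 1000 bp (R 0.920 on day 4 and 0.492 on day 7), and 90 raised. Without the day 4 lists, 1394 of 26554 loci were reduced and 691 raised. The width of the reduced loci was then 1000 bp, day 14 R 0.865 and the border zone ratio 0.578. Without the day 14 lists, 3536 of 21220 loci were reduced (R 0.917 on day 4 and 0.478 on day 7) and 572 raised. Separate intervals left 444 of the 967 loci. At least 200 whole tags on day 7, chosen after seeing the data, left 288 of 7925 loci, of median width 2000 bp (R 0.9295, 0.509 and 0.840, ratios 0.734 and 1.134), and 81 raised. The cause of these shifts was not tested beyond the construction of each alternative. Whole tags, another centre from summed tags, loci of up to 2000 bp, a 500 bp overlap and leaving out the sex chromosomes moved no count by over 1.5 times. The median of 119 whole tags on day 7, both conditions together, limits the precision of single loci.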
